A study of Mus musculus with 21 samples.

Results

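The 8 genes of the troponin T, I and C families measured in this series, Tnnt1, Tnnt2, Tnnt3, Tnni1, Tnni2, Tnni3, Tnnc1 and Tnnc2, were followed across single mouse myofibers of opposite contraction speed. They were taken as every probe that the array annotation names by one of these symbols, which gave 9 of the 55681 probes and 8 of the 35527 names on the array. Tnnt3 had 2 probes and each other gene had 1, with 1 spot per probe on each array. The measured material was 21 isolated myofibers of CD1 mice aged 3 months, 11 typed as MyHC-1 from the soleus and 10 typed as MyHC-2B from the extensor digitorum longus (EDL), each hybridized to its own single-colour array after amplification of its RNA. The type 1 myofibers came from mice 2, 3, 4, 8, 9 and 10 and the type 2B myofibers from mice 3, 4, 5, 6, 7 and 9, so mice 3, 4 and 9 gave both. No animal was treated, and the labels give the mice as male although the methods of the study name females. The type of each myofiber was assigned from its myosin heavy chain protein and not from its RNA. As every type 1 myofiber came from the soleus and every type 2B myofiber from the EDL, type and muscle cannot be told apart. Values are log2 of the scanner's processed signal after quantile normalization, on a scale shared by all arrays, and they are relative to the other RNA of the same myofiber. A single myofiber still carries attached cells, and a smaller share of a cell's RNA cannot be told apart from fewer such cells.

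Troponin is the calcium switch of the striated muscle thin filament and is built of 3 subunits. Troponin T ties the complex to tropomyosin, troponin I holds back the interaction of actin with myosin, and troponin C binds calcium and relieves that block. Slow and fast skeletal muscle use different paralogs. Tnnt1, Tnni1 and Tnnc1 encode the slow forms (Tnnc1 also serves the heart), Tnnt3, Tnni2 and Tnnc2 encode the fast forms, and Tnnt2 and Tnni3 encode the cardiac forms, of which Tnnt2 is also made in developing skeletal muscle. The questions put to the data were how completely the slow and fast paralogs of each subunit were exchanged between type 1 and type 2B myofibers, and whether the exchange held in each myofiber.

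All probes were 60 bases long, and 6 of them are shown because they fix which part of each gene was read. The coordinates are those of the array annotation on mm9. The 2 probes of Tnnt3, here called probe a (A_51_P345699, chr7:149698500-149700262, plus strand) and probe b (A_55_P2088375, chr7:149698467-149698526, plus strand), overlap by 27 bases, given in capitals.
Tnnt3 probe a: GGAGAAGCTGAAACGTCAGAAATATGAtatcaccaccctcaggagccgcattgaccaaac
Tnnt3 probe b: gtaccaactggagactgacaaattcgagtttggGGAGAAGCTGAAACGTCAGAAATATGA
The probes of Tnnt2 (chr1:137747976-137748288), Tnni1 (chr1:137705328-137706203) and Tnnc1 (chr14:32023360-32023776), all on the plus strand, span more than their own length on the genome, as does probe a of Tnnt3, so these 4 probes cross an exon junction. The probe of Tnni3 (chr7:4472043-4472102, minus strand) spans 60 bases without a break.
Tnnt2: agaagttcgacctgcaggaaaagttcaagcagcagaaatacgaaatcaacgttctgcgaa
Tnni1: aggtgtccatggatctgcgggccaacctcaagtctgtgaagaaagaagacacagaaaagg
Tnnc1: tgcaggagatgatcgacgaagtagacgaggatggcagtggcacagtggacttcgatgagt
Tnni3: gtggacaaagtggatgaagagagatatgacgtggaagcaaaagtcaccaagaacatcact
The probes of Tnnt1 (chr7:4456265-4456324, minus strand), Tnni2 (chr7:149630251-149630310, plus strand) and Tnnc2 (chr2:164602661-164602720, minus strand) hold the letters AATAAA, the polyadenylation signal, and are not printed. Apart from the overlapping Tnnt3 pair, the longest run of bases shared by any 2 troponin probes was 8 bases. The probes were compared only with each other and not with the transcripts of the paralogs. Binding of a probe to a paralog was therefore not tested. Some of these genes lie side by side. In the RefSeq gene table, Tnnt1 and Tnni3 are direct neighbours on chromosome 7, only Lad1 lies between Tnni1 and Tnnt2 on chromosome 1, and Lsp1 and Prr33 lie between Tnni2 and Tnnt3 on chromosome 7.

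The myosin heavy chain messages followed the label of the type in 20 of the 21 myofibers. Myh7, the slow myosin, lay at 15.53 to 16.28 in 10 type 1 myofibers and at 6.78 to 7.84 in the type 2B myofibers, and Myh4, the 2B myosin, lay at 14.42 to 15.81 in type 2B and at no more than 8.61 in type 1. The exception was myofiber S6.4 (soleus myofiber 6 of mouse 4), labelled type 1, with Myh7 at 9.22 and Myh2, the 2A myosin, at 15.22, above the other type 1 values of Myh2 (at most 13.03, with 1 spot unusable). Myh4 was at 6.0 in S6.4. Results are therefore given for all 21 myofibers, as the labels group them, and without S6.4. Between 38.7% and 79.8% of spots were well above background on an array, and 0 spots were flagged as saturated. On this measure all 9 troponin probes were well above background in every myofiber except those of Tnnt2 and Tnni3.

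Of the 9 troponin probes, 6 differed between the types with all 21 myofibers (limma with mouse as a random block, Bonferroni at 0.05 over the 46922 probes tested). Those of Tnnt1, Tnni1 and Tnnc1 were higher in type 1 myofibers, where 0.821% of all probes passed in that direction. Both probes of Tnnt3 and that of Tnni2 were higher in type 2B, against 0.612% of all probes. Without S6.4 the probe of Tnnt2 also passed, higher in type 1, which made 7 of 9, against 0.805% of all probes higher in type 1 and 0.597% higher in type 2B. With the Benjamini-Hochberg adjustment 8 of 9 passed, with S6.4 and without it, against 7.57% and 7.29% of all probes. Tnni3 passed under neither adjustment. Mouse 3 gave 7 of the 21 myofibers, and without it Tnnt1 alone passed the Bonferroni threshold, against 0.616% of all probes, or 6 of 9 when S6.4 was left out as well, against 0.612%. With mouse as a fixed block 1 probe passed, against 0.386% of all probes, or 5 without S6.4, against 0.389%. Several myofibers came from 1 mouse, and the correlation within a mouse that the random block used was -0.017, so the block changed the fit little. The p-values therefore measure mainly the spread between myofibers and not between animals.

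**Figure D1:**
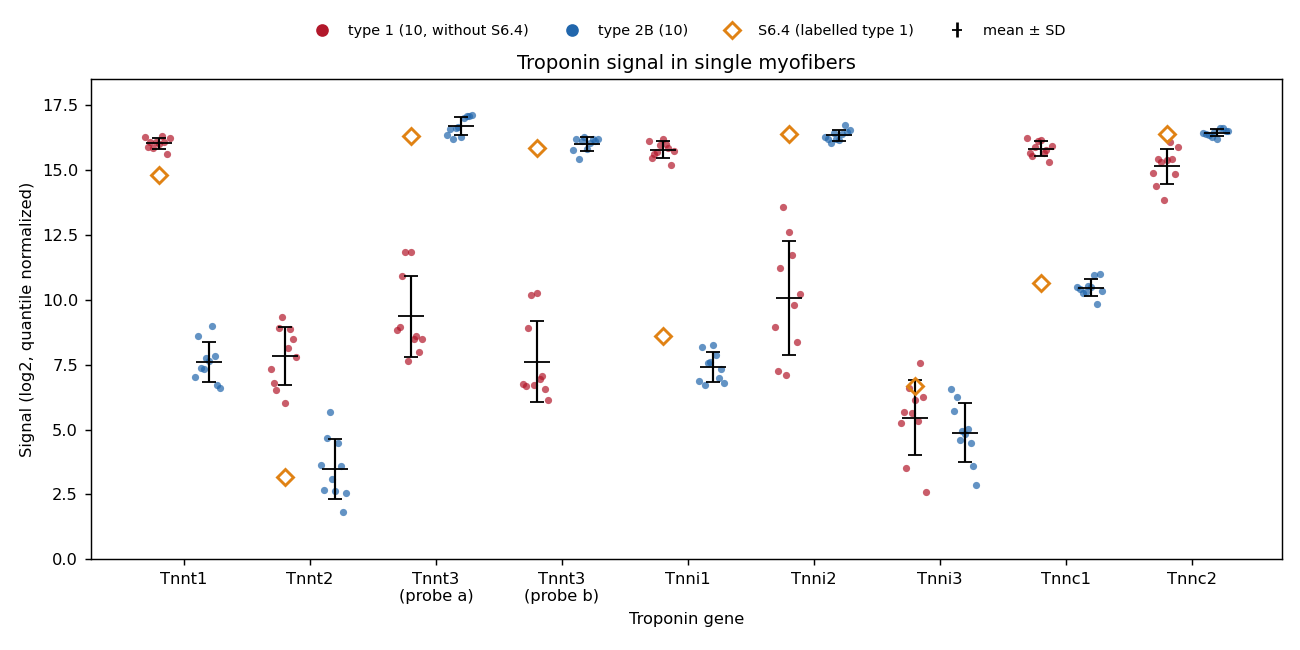
Log2 quantile normalized signal of the 9 troponin probes (vertical axis) in each myofiber, with red points for the 10 type 1 myofibers other than S6.4, blue points for the 10 type 2B myofibers, an open orange diamond for S6.4, and mean ± SD in black. The red and blue points separate for every probe but that of Tnni3, and the diamond lies with the blue points for Tnnt2, Tnnt3, Tnni2, Tnnc1 and Tnnc2 but near the red ones for Tnnt1.

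Tnnt1, the slow troponin T, was the member with the largest difference in all 21 myofibers. In the 10 type 1 myofibers other than S6.4 it ranged from 15.62 through a median of 16.07 to 16.31, and S6.4 was at 14.82. In the type 2B myofibers it ranged from 6.62 through 7.51 to 9.01. Every type 1 myofiber, S6.4 included, was thus far above every type 2B myofiber, with 5.81 log2 units between the closest values. Type 2B minus type 1 was -8.34 (SE 0.27, limma, Bonferroni adjusted p = 3.5e-15), a 323-fold difference, and -8.45 (SE 0.27, limma, Bonferroni adjusted p = 5.6e-15) without S6.4. It was the only troponin probe still past the threshold with mouse as a fixed block in all 21 myofibers.

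Tnnt3, the fast troponin T, ran the other way on both probes. On probe a the 10 type 1 myofibers lay between 7.66 and 11.86 (median 8.72) and the type 2B myofibers between 16.19 and 17.13 (median 16.65). On probe b they lay between 6.12 and 10.26 (median 6.85) and between 15.45 and 16.27 (median 16.12). S6.4, at 16.31 on probe a and 15.87 on probe b, was inside the type 2B range on both. The fitted difference was 6.69 (SE 0.76, limma, Bonferroni adjusted p = 4.6e-04) for probe a and 7.63 (SE 0.85, limma, Bonferroni adjusted p = 3.2e-04) for probe b. Without S6.4 it was 7.31 (SE 0.48) and 8.37 (SE 0.48), and the groups no longer overlapped.

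The 2 Tnnt3 probes did not differ by the same amount in the types. Probe a minus probe b, averaged within each mouse, was 1.64 ± 0.46 (SD, n = 6 mice) in type 1 and 0.66 ± 0.20 (SD, n = 6 mice) in type 2B. The difference of -0.98 gave p = 0.00216 in an exact two-sided permutation test of the mouse means, the smallest p that the 924 groupings allow. Mice 3, 4 and 9 stand in both groups, which the test does not take into account. Without S6.4 it was -1.07 (p = 0.00216, exact permutation test). S6.4 had the lowest value of the type 1 myofibers, 0.45, within the type 2B range of 0.39 to 0.98. The other type 1 myofibers ranged from 0.93 to 2.37, so single myofibers of the types overlapped without S6.4 as well. The difference between the types on probe b was larger than on probe a in each of the mice 3, 4 and 9.

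Tnnt2, the cardiac troponin T, gave a weaker signal. In the 10 type 1 myofibers it ranged from 6.03 through 7.97 to 9.34, and in type 2B from 1.83 through 3.33 to 5.67. S6.4 was at 3.18, inside the type 2B range, and only without it were the groups apart. It was well above background in all 11 type 1 myofibers but in 1 of 10 type 2B myofibers (E8.3), so most of the type 2B values are near the background of the array and the size of the difference is uncertain. Type 2B minus type 1 was -3.92 (SE 0.62, limma, Bonferroni adjusted p = 0.089; Benjamini-Hochberg adjusted p = 1.2e-04), and -4.34 (SE 0.49, limma, Bonferroni adjusted p = 4.8e-04) without S6.4. Leaving out E8.3 or mouse 4 also brought the Bonferroni adjusted p below the threshold. With normexp background correction the size without S6.4 was -2.00, and with mouse as a fixed block the probe did not pass without S6.4 (-4.30, limma, Bonferroni adjusted p = 1.0).

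Markers of heart muscle and of developing myofibers were read beside Tnnt2. Of the 6 probes of the heart muscle list (Myh6, Nppa, Nppb, Ryr2, Myl7) 5 were tested and 3 passed, those of Myh6 (2 probes) and of Myl7, all higher in type 1. Of all probes tested, 0.821% passed in that direction. The summed signal of the list was 924 to 28658 in type 1, as quantile normalized signal on the linear scale, and 441 to 781 in type 2B. The lowest type 1 sum, 924, was that of S6.4. The 2 Myh6 probes were the brightest of the list in type 1, with means of 12.68 and 13.23, against 7.63 and 5.87 in type 2B. This sum is therefore no measure of the heart muscle list as a whole. Nppa, the atrial natriuretic peptide, was at 4.29 ± 0.52 (SD, n = 11) in type 1 and 4.59 ± 0.57 (SD, n = 10) in type 2B. Nppb was at 7.60 ± 0.80 (SD, n = 11) in type 1 and 8.00 ± 0.27 (SD, n = 10) in type 2B and did not pass. Ryr2, the cardiac calcium release channel, was well above background in 1 type 1 myofiber only. Of the 9 probes of the developing myofiber list (Myh3, Myh8, Chrng, Myl4, Actc1) 8 were tested and 2 passed, both of Myh3, the embryonic myosin, which were higher in type 1. The share of all probes in that direction was again 0.821%. The developing myofiber list summed to 50236 to 116068 of normalized signal in type 1, the highest being S6.4, and 71239 to 143444 in type 2B. Most of this sum came from 2 probes of Myh8, with means of 15.33 and 14.43 in type 1 and 15.84 and 15.79 in type 2B. The other 2 Myh8 probes disagreed in level, with means of 3.22 and 2.39 in type 1 and 3.35 and 2.48 in type 2B. The sum is therefore no measure of the list as a whole. The part of this list in the Tnnt2 result was not tested.

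**Figure D2:**
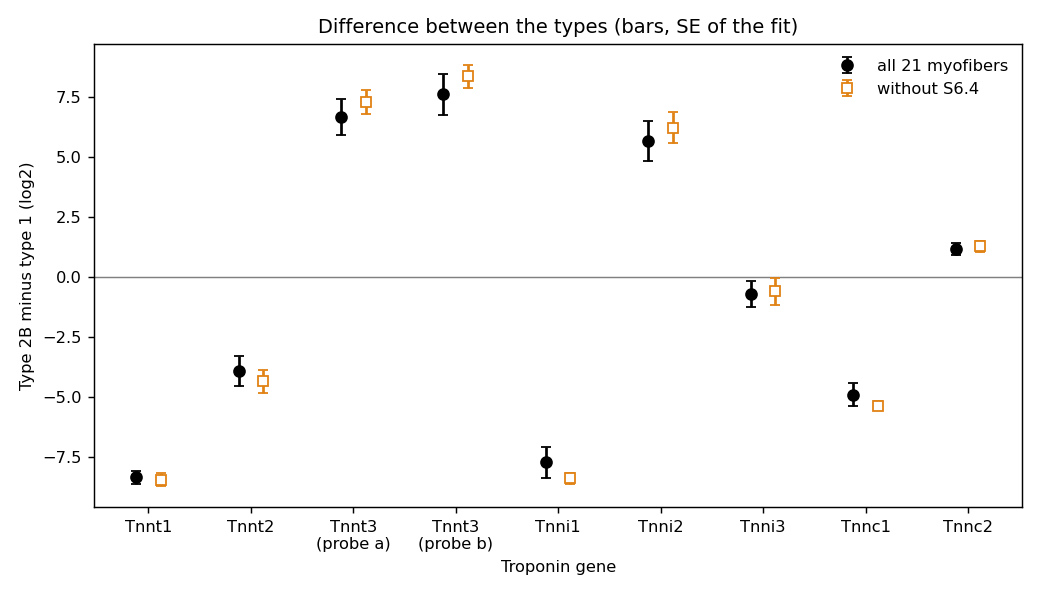
Difference of type 2B minus type 1 in log2 units (vertical axis) for the 9 troponin probes, with bars for the SE of the fit, for all 21 myofibers (black circles) and without S6.4 (orange squares). Slow members lie below zero and fast members above it, from -8.34 for Tnnt1 to 7.63 for Tnnt3 probe b with all myofibers, while Tnnc2 is at 1.18 and Tnni3 at -0.71.

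Among the inhibitory subunits, Tnni1, the slow troponin I, ranged from 15.19 through 15.80 to 16.20 in the 10 type 1 myofibers and from 6.70 through 7.45 to 8.25 in type 2B. S6.4, at 8.62, was 7.17 below the mean of the other type 1 myofibers and only 0.37 above the highest type 2B myofiber. The fitted difference was -7.72 (SE 0.66, limma, Bonferroni adjusted p = 2.4e-06), and -8.37 (SE 0.23, limma, Bonferroni adjusted p = 3.2e-16) without S6.4. Without S6.4 the SD of Tnni1 in type 1 was 0.31, against 2.18 with it.

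Tnni2, the fast troponin I, ranged from 16.05 through 16.33 to 16.76 in type 2B myofibers, and S6.4 lay among them at 16.38. In the 10 other type 1 myofibers it was spread from 7.10 through 10.02 to 13.56, the widest type 1 spread of the fast members (SD 2.20). The highest were S14.2 at 13.56, S15.2 at 12.61, S10.8 at 11.72 and S16.3 at 11.24, and the lowest were S7.3 at 7.10 and S7.2 at 7.27. Type 2B minus type 1 was 5.66 (SE 0.83, limma, Bonferroni adjusted p = 0.030) and 6.23 (SE 0.65, limma, Bonferroni adjusted p = 1.4e-04) without S6.4. The call with S6.4 was near the threshold and passed in only 4 of the 21 fits that left out a single myofiber, with adjusted p between 1.4e-04, without S6.4, and 0.089. Removal of any mouse other than 2 or 4 also ended it.

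Tnni3, the cardiac troponin I, was low throughout. It ranged from 2.59 through 5.67 to 7.58 in the 10 type 1 myofibers and from 2.86 through 4.89 to 6.57 in type 2B, with S6.4 at 6.68, and it was well above background in 8 of 11 type 1 and 6 of 10 type 2B myofibers. Type 2B minus type 1 was -0.71 with a 95% interval of -1.81 to 0.40 (limma, Bonferroni adjusted p = 1.0), so a difference of up to 1.81 log2 units towards type 1 remains within the interval. Its direct neighbour in the genome, Tnnt1, was the member that differed most.

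Of the calcium-binding subunits, Tnnc1, the slow and cardiac troponin C, ranged from 15.32 through 15.84 to 16.24 in the 10 type 1 myofibers and from 9.85 through 10.45 to 11.00 in type 2B. S6.4 was at 10.64, inside the type 2B range. The types differed by -4.89 (SE 0.49, limma, Bonferroni adjusted p = 4.0e-05), and -5.36 (SE 0.18, limma, Bonferroni adjusted p = 3.5e-14) without S6.4. Its spread in type 1 fell from an SD of 1.59 with S6.4 to 0.29 without it.

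Tnnc2, the fast troponin C, changed least among the skeletal members. It ranged from 16.21 through 16.45 to 16.63 in type 2B myofibers and from 13.85 through 15.35 to 16.07 in the 10 type 1 myofibers, with S6.4 at 16.40. All type 2B myofibers were above all type 1 myofibers once S6.4 was set aside, by 0.14 log2 units at the closest. Type 2B minus type 1 was 1.18 with a 95% interval of 0.65 to 1.70 (limma, Bonferroni adjusted p = 1.0; Benjamini-Hochberg adjusted p = 0.0034), which is a 2.26-fold difference, and 1.29 with an interval of 0.79 to 1.79 (limma, Bonferroni adjusted p = 0.99; Benjamini-Hochberg adjusted p = 8.7e-04) without S6.4. It passed the Bonferroni threshold only without S6.4 and with scaling to the 75th percentile, at 1.58 (limma, adjusted p = 0.031). With all 21 myofibers the fast paralogs of troponin T and I differed by 50.7-fold or more, and all of these probes were well above background in every myofiber.

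Myofiber S6.4 joined the forms of both types. Its signals of Tnnt3 (both probes), Tnni2, Tnnc2, Tnnc1 and Tnnt2 were within the type 2B range and outside that of the other type 1 myofibers, and Tnni1 was close above the type 2B range. Tnnt1 lay between the ranges, 1.22 below the mean of the other type 1 myofibers and 7.23 above the mean of type 2B, and Tnni3, at 6.68, was within the type 1 range and above the highest type 2B value of 6.57. Outside the troponins it was mixed too. Of the 9 slow marker probes, 2 were within the range of the other type 1 myofibers (Myl3, the slow essential light chain, at 16.29, and Casq2, the slow calsequestrin, at 10.08), 4 were between the ranges (Myh7, Myl2 and both probes of Atp2a2, the slow calcium pump), and the 3 of Tpm3 were within the type 2B range. Of the 7 fast marker probes, 3 were within the range of the other type 1 myofibers (Myh4 and both probes of Pvalb, parvalbumin), that of Myh1 was within the type 2B range, and that of Atp2a1, the fast calcium pump, was within both. Actn3, the fast alpha-actinin, at 4.47 and Mylk2, a myosin kinase, at 10.13 were below both ranges. It was 1 myofiber of 1 mouse and carries no replicate.

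The values of all 21 myofibers did not overlap between the types for 2 of the 9 probes, those of Tnnt1 and Tnni1, against 1.34% of all probes tested. Without S6.4 they did not overlap for 8 of 9, against 1.64%. When the myofibers of each mouse and type were averaged, the mouse means did not overlap for 8 of 9 probes, with S6.4 and without it, against 4.96% and 5% of all probes. For each of these 8 probes the exact two-sided permutation test of 6 against 6 mouse means gave p = 0.00216, the smallest it can give, and for Tnni3 it gave p = 0.74. The means of mice 3, 4 and 9 stand in both groups of this test too.

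**Figure D3:**
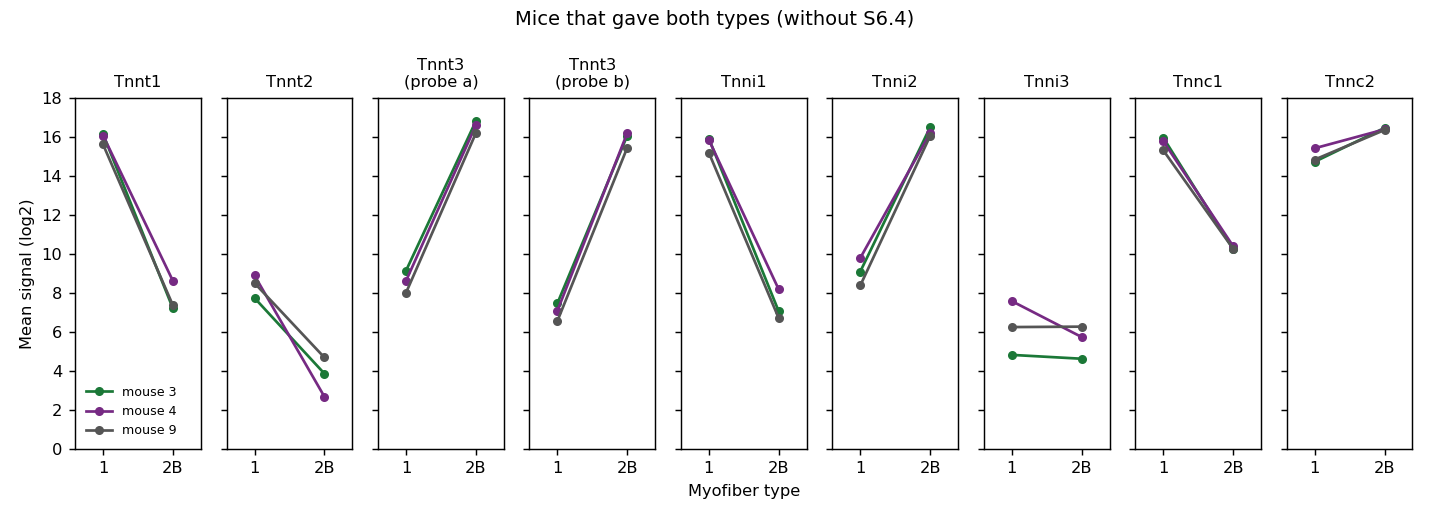
Mean log2 signal (vertical axis) of type 1 and type 2B myofibers in the 3 mice that gave both types, without S6.4, 1 panel per troponin probe and 1 line per mouse. The 3 lines slope the same way in each panel except that of Tnni3, where they are -0.20 in mouse 3, -1.84 in mouse 4 and 0.02 in mouse 9.

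The same directions were read inside single animals. In mice 3, 4 and 9, without S6.4, type 2B minus type 1 was -8.94, -7.46 and -8.25 for Tnnt1 and -8.86, -7.67 and -8.48 for Tnni1. For Tnnc1 it was -5.71, -5.38 and -5.05. The fast members gave 7.67, 7.98 and 8.19 for Tnnt3 probe a, 7.40, 6.41 and 7.67 for Tnni2, and 1.74, 0.97 and 1.52 for Tnnc2. Tnnt2 gave -3.88, -6.22 and -3.82. With S6.4 included mouse 4 stood apart, at -4.06 for Tnni1, -2.81 for Tnnc1 and 4.13 for Tnnt3 probe a. These differences rest on few myofibers per mouse and were not tested.

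The slides were a batch that could be examined, as slides 1, 2 and 5 held both types. Without S6.4 the difference within these slides ran from -9.02 to -8.02 for Tnnt1, from -9.15 to -7.65 for Tnni1 and from -5.99 to -5.26 for Tnnc1. It ran from 7.72 to 8.45 for Tnnt3 probe a, from 8.58 to 9.77 for probe b, from 5.41 to 8.67 for Tnni2 and from 0.65 to 1.99 for Tnnc2. For Tnnt2 it ran from -4.69 to -4.36. Tnni3 ran from -0.83 to -0.04.

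Slides 3 and 4 held type 1 myofibers only (S16.3, S14.2 and S15.2), and fast troponin T was higher there. On Tnnt3 probe a these 3 myofibers lay between 10.90 and 11.86 and the 7 others, without S6.4, between 7.66 and 8.95, and on probe b between 8.92 and 10.26 against 6.12 to 7.08. The slow members did not set them apart, as Tnnt1 lay between 15.84 and 16.08 there and between 15.62 and 16.31 in the others. Slide and myofiber cannot be told apart for these 3. The fast myosin messages set S16.3 and S15.2 apart but not S14.2. Myh1 was at 5.26 in S16.3 and 5.97 in S15.2 but at 1.69 in S14.2, and at most at 1.81 in the 7 others. Myh2 was at 13.03 in S16.3 and had no usable spot in S15.2. In S14.2 it was at 7.61, within the 1.73 (S7.3) to 9.14 (S9.4) of the 7 others. The part of these myosins in the Tnnt3 values was not tested. Without slides 3 and 4 the count of troponin probes past the threshold was again 6 with S6.4 and 7 without it. Over all probes 534 of 48437 passed with S6.4 and 518 of 46982 without it. S10.8, on slide 5, had a high Tnni2 signal of 11.72 with Tnnt3 probe a at 8.49, so a high Tnni2 signal was not paired with a high Tnnt3 signal in every type 1 myofiber.

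**Figure D4:**
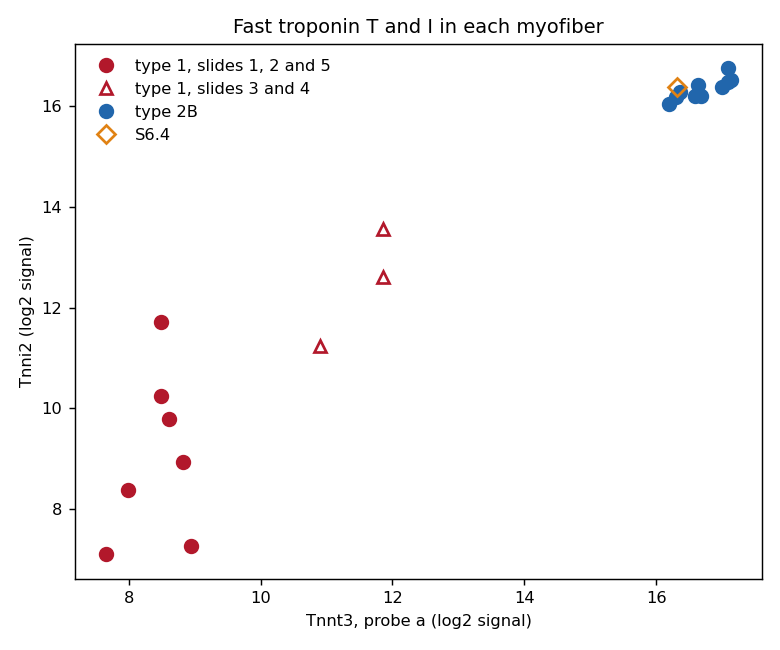
Log2 signal of Tnni2 (vertical axis) against Tnnt3 probe a (horizontal axis) in each of the 21 myofibers, with red circles for type 1 on slides 1, 2 and 5, red triangles for type 1 on slides 3 and 4, blue circles for type 2B and an orange diamond for S6.4. The type 2B myofibers and S6.4 form a tight group above 16 on both axes, and the other type 1 myofibers spread from 7.10 to 13.56 on Tnni2.

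Within a type the slow members varied together in part. Over the 10 type 1 myofibers without S6.4 the correlation across myofibers was 0.74 for Tnnt1 with Tnni1, 0.83 for Tnni1 with Tnnc1 and 0.52 for Tnnt1 with Tnnc1. The fast pairs gave 0.79 for Tnnt3 probe a with Tnni2, 0.74 for Tnni2 with Tnnc2 and 0.30 for Tnnt3 probe a with Tnnc2. Pairs of a slow with a fast member ranged from -0.23 to 0.40. In the 10 type 2B myofibers the fast pairs ranged from 0.44 to 0.84, the slow pairs from 0.07 to 0.64 and the mixed pairs from -0.30 to 0.30. These are descriptions over myofibers that share mice, slides and scan days.

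For each troponin the 3 genes with the highest Pearson correlation over the 21 myofibers were listed, a measure that any large difference between the types raises. For Tnni1 they were Myh7b (r = 1.00), Myh7 (r = 0.99) and Myh6 (r = 0.99), all myosin heavy chains, and the same 3 genes led for Tnnc1, each with r = 0.99. Tnnt1 was most like Sln, the sarcolipin that binds the calcium pump (r = 0.99), Ankrd2 (r = 0.99) and Gm5514 (r = 0.99). Tnnt2 was most like Tpm3, slow tropomyosin (r = 0.91), Myh7b (r = 0.90) and Spnb2, a spectrin (r = 0.90). Tnnt3 probe a was most like Myom2, an M-band protein (r = 0.98), Myoz1, a Z-disc protein (r = 0.97), and Mylpf, the fast regulatory light chain (r = 0.97), and Tnni2 was most like Tpm1 (r = 0.98), Mylpf (r = 0.98) and Gm14492 (r = 0.97). Tnnc2 was most like Eno3, muscle enolase (r = 0.95), Myl1, the fast essential light chain (r = 0.94), and Gm10293 (r = 0.92). Tnni3 was most like Gsbs (r = 0.86) and 2 probes that the array names by position only (r = 0.84 and 0.83). These lists moved when S6.4 was left out, when 12 of the 24 genes were among the 3 closest again, and with Spearman's rho, when 6 were.

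The other genes of the thin filament and its anchors gave a partial exchange. Of the 28 genes listed, 26 had 45 probes and 24 had 41 probes tested. With all 21 myofibers 5 probes were higher in type 1 and 3 in type 2B, against 0.821% and 0.612% of all probes tested. The median size of the difference was 1.07 log2 units over the list and 0.34 over all probes tested. Higher in type 1 were Lmod2, an actin nucleator, at -8.28 (SE 0.39, limma, Bonferroni adjusted p = 1.1e-11), Tpm3 on all 3 of its probes, with -5.82 on the brightest (SE 0.57, limma, Bonferroni adjusted p = 4.7e-05), and Actn2, the alpha-actinin of all myofibers, at -3.68 (SE 0.29, limma, Bonferroni adjusted p = 5.8e-07). Lmod2 was well above background in only 2 of 10 type 2B myofibers, so the size of its difference is uncertain. Higher in type 2B were Actn3 at 9.53 (SE 0.34, limma, Bonferroni adjusted p = 2.0e-14), Tmod1, which caps the pointed ends of actin filaments, at 3.44 (SE 0.48, limma, Bonferroni adjusted p = 0.014), and 1 of the 5 probes of Tpm1. The brightest probes of Tpm3 and Actn2 each lacked 1 type 1 spot. The brightest Tpm1 probe did not pass with all myofibers, at 3.02 (SE 0.47, limma, Bonferroni adjusted p = 0.082), and passed without S6.4, at 3.31 (limma, Bonferroni adjusted p = 0.0012). Acta1, skeletal actin, at 0.11 (SE 0.17), Neb, nebulin, at 0.14 (SE 0.17) on its brightest probe, and Tpm2, beta-tropomyosin, at 0.01 (SE 0.18) did not pass.

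**Figure D5:**
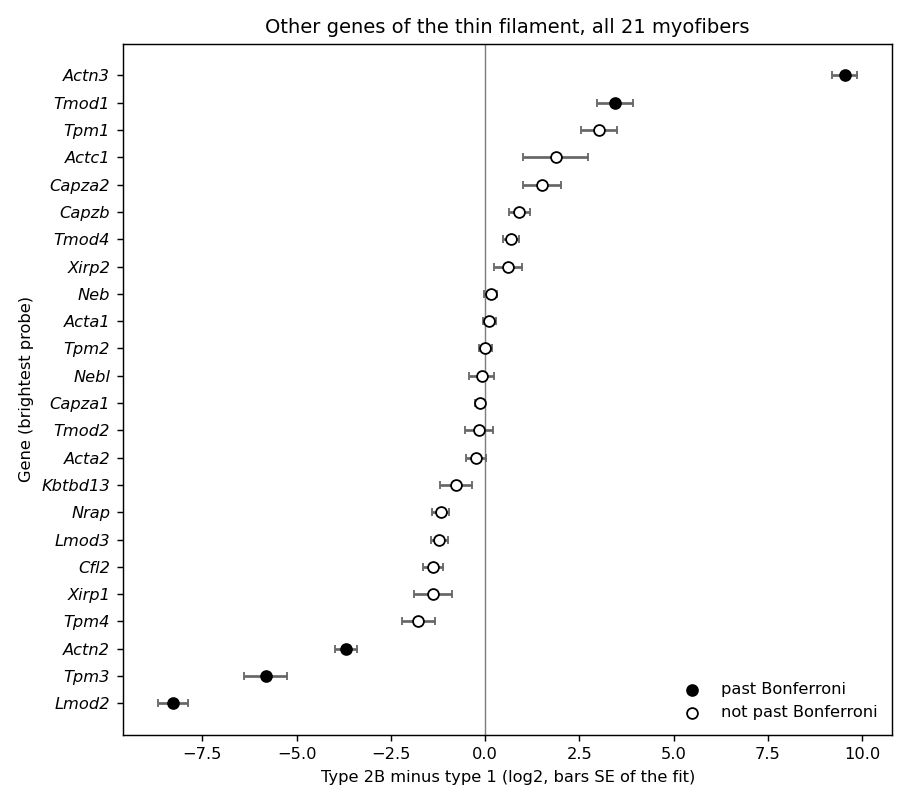
Difference of type 2B minus type 1 in log2 units (horizontal axis) for the brightest probe of each of the 24 thin filament genes tested, with bars for the SE of the fit over all 21 myofibers and filled points for probes past the Bonferroni threshold. Lmod2, Tpm3 and Actn2 lie to the left and Actn3 and Tmod1 to the right, and the other genes, none past the threshold on this probe, lie between -1.77 (Tpm4) and 3.02 (Tpm1).

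Markers of cells that can stay attached to a myofiber were read beside the troponins. Of the probes tested, none of 6 for smooth muscle, 4 for endothelium, 5 for blood, 4 for connective tissue and 3 for Schwann cells passed Bonferroni. Those of Cdh5, Hbb-b1 and Pdgfra were below the filter and not tested. Col3a1, of the connective tissue list, was lower in type 2B at -2.45 (limma, Benjamini-Hochberg adjusted p = 0.0014). Col1a1, Col1a2 and Dcn did not pass that adjustment, which 7.57% of all probes passed. Of the 6 satellite cell probes 5 were tested and 1 passed Bonferroni, an Ncam1 probe that was 2.48 lower in type 2B, against 0.821% of all probes higher in type 1. The other 2 Ncam1 probes were lower in type 2B too, at -2.50 and -2.08 (limma, Benjamini-Hochberg adjusted p = 0.0050 and 0.0065). Myod1 was well above background in all 11 type 1 and all 10 type 2B myofibers, Pax7 in 8 and 2, and Myf5, not tested, in none. The summed normalized signal was 362 to 8637 in type 1 and 398 to 781 in type 2B for blood, and 281 to 4754 against 212 to 689 for connective tissue. Their part in the troponin results was not tested. The markers of the types themselves differed as labelled, with 9 of 9 slow and 4 of 7 fast probes past the threshold. Of all probes, 0.821% passed higher in type 1 and 0.612% higher in type 2B.

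The stretches of 250 bases before the start of the 3 slow members that fell together in type 2B, and of Tnnc2, the fast member that RefSeq's table of promoters holds, are shown to set their sequence beside their signal. The table was matched by symbol and gave 8 entries for 6 of the 8 genes, with Tnni2 and Tnnt3 not among them, and the first of the entries is shown for Tnni1. Capitals mark matches to CANNTG, the E-box of myogenic factors such as MyoD, to CATTCC, the MCAT element bound by TEAD factors, and to TATAAA, searched on both strands. No match overlaps another. The build is GRCm38.p6.
Tnnt1 (chr7:4515976-4516225, minus strand): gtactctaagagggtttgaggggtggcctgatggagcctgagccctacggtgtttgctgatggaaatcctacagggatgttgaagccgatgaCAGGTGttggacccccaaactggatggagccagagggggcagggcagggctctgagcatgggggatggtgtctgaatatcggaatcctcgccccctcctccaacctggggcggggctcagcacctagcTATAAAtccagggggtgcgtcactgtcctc
Tnni1 (chr1:135799171-135799420, plus strand): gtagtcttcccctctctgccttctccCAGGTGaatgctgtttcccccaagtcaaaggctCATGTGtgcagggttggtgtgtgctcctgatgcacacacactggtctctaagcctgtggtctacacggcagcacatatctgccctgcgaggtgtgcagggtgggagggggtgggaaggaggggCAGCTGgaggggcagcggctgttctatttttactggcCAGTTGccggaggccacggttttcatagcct
Tnnc1 (chr14:31208062-31208311, plus strand): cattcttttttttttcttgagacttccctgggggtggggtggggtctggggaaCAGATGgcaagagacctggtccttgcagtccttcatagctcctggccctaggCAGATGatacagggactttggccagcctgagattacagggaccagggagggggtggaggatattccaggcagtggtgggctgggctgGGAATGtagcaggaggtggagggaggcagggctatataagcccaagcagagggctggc
Tnnc2 (chr2:164779735-164779984, minus strand): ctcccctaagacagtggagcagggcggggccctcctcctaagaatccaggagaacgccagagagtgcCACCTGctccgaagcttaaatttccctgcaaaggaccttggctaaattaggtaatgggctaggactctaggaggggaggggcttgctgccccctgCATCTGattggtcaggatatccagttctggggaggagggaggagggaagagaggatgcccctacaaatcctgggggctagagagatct
CANNTG was found 1 time before Tnnt1, 4 times before Tnni1, and 2 times each before Tnnc1 and Tnnc2, and 66.2% of the 32851 promoters of the table hold it in a stretch of the same length. CATTCC was found in 1 of the 4 stretches, that of Tnnc1, on the opposite strand 58 bases before the start, and 12.6% of promoters hold it. TATAAA was found in that of Tnnt1, 30 bases before the start, and 12.4% of promoters hold it. The MEF2 motif was also searched and gave no match in these 4 stretches, and 2.92% of promoters hold it.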

How the data were processed

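Per the labels and the methods of the study, the authors typed each myofiber by its myosin heavy chain protein, amplified its RNA and hybridized it to a single-colour Agilent array, and read the scans with Agilent Feature Extraction 10.7.3.1. The deposited scanner outputs give the processed intensity of each spot, already background-subtracted, and flags. A deposited table of the authors' processed values gives 3687 features and served only to compare its columns with the scanner outputs. Here the processed intensity of non-control spots was quantile normalized, spots with an outlier flag were set missing, and log2 values were averaged per probe. A probe was tested where its spot carried the positive and significant flag on 50% or more of the arrays of either type (46922 of 55681). The fit used limma 3.58.1 in R 4.3.3 with mouse as a random block (consensus correlation -0.017) and Bonferroni adjustment at 0.05. Mouse means were compared with scipy. In simulated data with 200 changed probes among 46922, the fit was run without a block for mouse. It called 86% of probes changed by 4 log2 units, 30% of those changed by 2 and 2% of those changed by 1, and no unchanged probe. The alternatives are given in the closing section. The number of arrays limits the precision.

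The members and gene lists were chosen with earlier results of these data known. The text names every troponin probe, 4 myosin heavy chains, the 3 genes most correlated with each troponin, and the thin filament genes whose brightest probe passed. Where a gene has several probes, the brightest over the 21 arrays stands for it. Markers and genes given beside a result were added to these after their values were seen.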

Additional observations from a re-analysis of the deposited data

How the results depend on the processing

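No troponin probe changed its direction under any alternative that was run, and the calls of Tnnt1 held under all of them. With all 21 myofibers, 6 troponin probes passed. Without the filter Tnni2 (5.66) gave an adjusted p of 0.052. With mouse as a fixed block 1 troponin probe passed, and Tnnt3 probe a (6.94), probe b (7.76), Tnni1 (-7.68), Tnni2 (6.45) and Tnnc1 (-4.93) did not. With slide as a fixed block Tnni2 (6.35) did not pass. With the methods' t-test, run here in Welch's form without the gene permutation that the methods add, 3 passed, and Tnnt3 probe a (6.71), probe b (7.65) and Tnni2 (5.69) did not. Of the 10 replicate numbers found in both types 1 joins myofibers of the same mouse, so they were not taken as pairs (correlation of deviations -0.16 to 0.20 and 1 of 10 best with its own number), and with the replicate block 4 passed, without Tnnt3 probe a (6.56) and Tnni2 (5.65). Over all 46922 probes tested the count of 672 became 181 with mouse as a fixed block, 331 with the replicate block and 355 on means per mouse. It was 468 with slide as a fixed block and 515 with the methods' t-test. Without the filter 655 of 55681 probes passed.

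Leaving out a mouse or a myofiber gave counts of 1 to 7, with 1 only without mouse 3, where Tnnt1 alone passed. Over all probes, 300 of 48707 passed without mouse 3 and 660 of 47074 without S6.4, the lowest and highest counts of these fits. The ranges were -4.34 to -3.66 for Tnnt2, 6.31 to 7.32 for Tnnt3 probe a, 7.27 to 8.38 for probe b, -8.45 to -7.20 for Tnni1, 5.0 to 6.24 for Tnni2 and -5.36 to -4.53 for Tnnc1.

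Without S6.4, Tnnt2 (-4.34) passed. With the Benjamini-Hochberg adjustment Tnnt2 (-3.92) and Tnnc2 (1.18) passed, and without S6.4 Tnnt2 (-4.34) and Tnnc2 (1.29). Further alternatives without S6.4 were chosen after seeing the data. Tnnt2 then passed at -4.14 with the 75th percentile, where Tnnc2 (1.58) passed too and the count was 8, at -2.00 with normexp, at -4.01 with unflagged spots missing, at -4.55 with slide as a fixed block and at -4.63 without slides 3 and 4. With mouse as a fixed block 5 passed, without Tnni2 (7.27) and Tnnt2 (-4.30, adjusted p = 1.0). With the replicate block 6 passed, without Tnnt2 (-4.37, adjusted p = 1.0). Without mouse 3 the count was 6, with Tnnt2 (-4.66) and without Tnni2 (5.80). Over all 47074 probes tested without S6.4, 680 passed with the 75th percentile, 183 with mouse as a fixed block and 283 with the replicate block. Without mouse 3 as well, 295 of 48194 passed. Of the 24 most correlated genes, 12 returned without S6.4 and 6 by Spearman's rho. The signal of Tnnt2 and Tnni3 near background limits their differences.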

Other observations

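In type 2B myofibers the 4 arrays of the second scan day (E7.7, E14.3, E12.5 and E15.3) gave Tnnt3 probe a at 17 to 17.13, above the 16.19 to 16.67 of the other 6, and Tnnc2 at 16.50 to 16.63 against 16.21 to 16.47. Tnni2 was at 16.38 to 16.76 against 16.05 to 16.42, so its ranges overlapped. Spots well above background made up 38.7% to 48.1% on the arrays of that day, the lowest of the 4 scan days. The part of the scan day in these values was not tested.

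In the deposited table of processed values, 2 of the 21 columns, those of E13.3 and E12.5, were most like each other's scanner output (r = 0.88 and 0.95) and not their own (r = 0.01 and -0.01). Both are type 2B myofibers, and exchanging them left 6 troponin probes past the threshold, against 674 of 46922 over all probes.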
